A study of Homo sapiens with 2 samples.

Results

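The family of miR-148 and miR-152 was followed in RNA held back on a resin from cells of BT549, a human breast cancer line. The family was taken as the rows of hsa-miR-148a-3p, hsa-miR-148b-3p and hsa-miR-152-3p in the deposited count table, 3 of its 407 miRNAs. Both groups came from BT549 cells that overexpress the long non-coding RNA SNHG15 carrying MS2 hairpins, short RNA loops that the MS2 coat protein (MCP) binds. In the pulldown group, lysate was kept for 5 h at 4 °C on amylose resin coated with MCP fused to maltose binding protein (MBP-MCP). In the control group the same kind of lysate was kept on amylose resin without that protein. Both groups had the same time and temperature, 3 washes and 20 mM maltose. Each group held 1 library, which leaves every difference without a replicate check, and the 2 resins differ in the MBP-MCP protein as well as in the RNA it can hold. Both groups carry the tagged RNA, so RNA bound by MBP-MCP itself and RNA bound through SNHG15 cannot be told apart. The comparison was aimed at which miRNAs associate with SNHG15, but by itself it sets MBP-MCP resin against bare resin.

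MicroRNAs are short RNAs that lead Argonaute proteins to transcripts, mainly by pairing of the seed, bases 2 to 8 from the 5′ end. The family is best known for repressing the maintenance DNA methyltransferase DNMT1, and miR-148 also represses the de novo methyltransferase DNMT3B. The family is known as well for acting on HLA-G, a molecule of immune tolerance, and in several carcinomas its genes are themselves silenced by DNA methylation.

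The 3 mature sequences are shown because the results rest on telling them apart, with the seed in capitals (5′ to 3′, RefSeq, GRCh38.p14):
miR-148a-3p: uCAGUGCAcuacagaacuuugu
miR-148b-3p: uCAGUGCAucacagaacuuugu
miR-152-3p: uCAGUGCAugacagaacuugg
These 3 were the only ones of 2370 mature human miRNAs in the RefSeq-derived table with the seed CAGUGCA. That table is not complete, since it lacks miR-130a-3p. Bases 1 to 8 and 11 to 19 were the same in all 3 members. Counted from the 5′ end, miR-148a-3p and miR-148b-3p differed by C9U and U10C over 22 bases, so that 20 were identical. miR-148b-3p and miR-152-3p differed by C10G and U20G over the 21 bases they share. miR-148a-3p and miR-152-3p differed at 3 positions, by C9U, U10G and U20G. How the authors assigned a read with a sequencing error or a trimmed end among members that are 2 or 3 bases apart is not stated in the labels or headers.

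The genes lie on separate chromosomes of GRCh38. MIR148A is on chromosome 7 (25949919 to 25949986, minus strand) and overlaps no other gene of GENCODE 29. MIR148B is on chromosome 12 (54337216 to 54337314, plus strand), in an intron of COPZ1, which encodes a zeta subunit of the COPI vesicle coat, and also in an intron of the overlapping transcript gene AC078778.2. MIR152 is on chromosome 17 (48037161 to 48037247, minus strand), in an intron of COPZ2, the paralogue of COPZ1. The hosts of MIR148B and MIR152 are transcribed in the same direction as the miRNA.

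miRNA reads numbered 202560 in the pulldown library against 111414 in the control, so equal levels would give 1.82 pulldown reads for each control read. Levels are given as reads per 1000000 reads of the library (RPM), and a ratio is the RPM in the pulldown over that in the control. As a check of the cell line label, the mesenchymal-type list of miR-221-3p, miR-222-3p, miR-100-5p and miR-125b-5p summed to 62426 RPM in the pulldown and 68860 in the control, of which miR-125b-5p alone made up 51234 and 58691. miR-222-3p was at 252 and 269 RPM. Of 6 epithelial miRNAs listed, 1 was among the 407 miRNAs counted, miR-200a-3p, with 1 read in each library.

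miR-148b-3p carried most of the family's reads, with 422 in the pulldown and 292 in the control. Its level was 2083 RPM in the pulldown (95% interval 1889 to 2292) and 2621 RPM in the control (2329 to 2939). It was the 39th most abundant miRNA of the pulldown library and the 36th of the control library. The control value was the higher one, and the ranges of the 2 libraries did not overlap.

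miR-152-3p had 119 reads in the pulldown and 110 in the control, although the pulldown library was the larger. This came to 587 RPM (487 to 703) in the pulldown and 987 RPM (811 to 1190) in the control. The ranges of the 2 libraries did not overlap, with the control higher. It ranked 67th in the pulldown and 55th in the control.

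miR-148a-3p, the member with the fewest reads, had 5 in the pulldown and 11 in the control. Its level was 24.7 RPM (8.01 to 57.6) against 98.7 RPM (49.3 to 177), ranges that overlapped. The interval of its ratio, 0.0681 to 0.781, left out 1 nonetheless. All intervals are exact, from Poisson or Clopper-Pearson limits, and cover counting error only. Reads made by PCR are not independent molecules, and whether molecular identifiers were used in counting is not stated in the labels or headers.

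**Figure D1:**
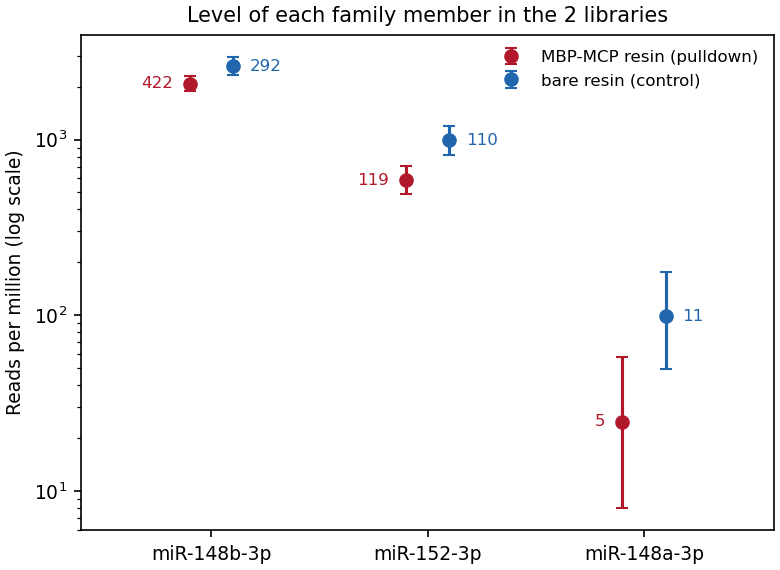
Level of each member in RPM (vertical log axis) in the pulldown library (red) and the control library (blue), 1 library each; bars are 95% Poisson intervals and the digits beside the points are reads. All 3 members sit lower in the pulldown, and the bars of miR-148a-3p, with 5 and 11 reads, overlap.

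The order of the members was the same in both libraries: miR-148b-3p was highest, then miR-152-3p, then miR-148a-3p, and neighbours in this order had intervals that did not overlap within a library. As mature RNAs of 21 or 22 bases they can be set side by side in RPM, but how well each is captured in a library was not tested. miR-148b-3p made up 77.3% of the family's 546 reads in the pulldown (73.5 to 80.7) and 70.7% of its 413 in the control (66.1 to 75.1). miR-152-3p made up 21.8% (18.4 to 25.5) and 26.6% (22.4 to 31.2). miR-148a-3p made up 0.916% (0.298 to 2.12) and 2.66% (1.34 to 4.72). For each of the 3 members the intervals of the 2 libraries overlapped. Such overlap does not show that the shares were equal.

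Each member was lower in the pulldown than in the control. The ratio was 0.795 for miR-148b-3p (0.683 to 0.926), or 1.26-fold lower. For miR-152-3p it was 0.595 (0.455 to 0.778), or 1.68-fold lower. For miR-148a-3p it was 0.25 (0.0681 to 0.781), or 4.00-fold lower with an interval from 1.28-fold to 14.7-fold. Summed over the family the ratio was 0.727 (0.639 to 0.828), so that the family took 0.270% of all reads in the pulldown and 0.371% in the control. On the log2 scale, with a prior count of 0.5, the ratios were −0.33 for miR-148b-3p, −0.75 for miR-152-3p, −1.87 for miR-148a-3p and −0.46 for the sum. A ratio compares shares of 2 libraries and says nothing of the amount of RNA on either resin.

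The 2 members with at least 20 reads in a library were miR-148b-3p and miR-152-3p. They were read against the 161 miRNAs that passed the same minimum, of which 133 were named and the rest numbered predictions. Of the 161, 60.2% had a ratio below 1, as both members did. The whole interval lay below 1 for both members and for 23.6% of the 161, and above 1 for 11.2% of them. An interval leaves out 1 more readily with more reads, and the 161 were not matched to the members for reads. Neither member was 2-fold lower, a size that 3.11% of the 161 reached, and 2.48% were 2-fold higher. miR-148a-3p passed 2-fold but not the read minimum. None of the 3 is among the 26 miRNAs called different in the authors' deposited table, 6.39% of the 407. That table gives log2 fold changes of −2.0 for miR-148a-3p, −0.75 for miR-152-3p and −0.33 for miR-148b-3p, with adjusted p-values of 0.535, 0.506 and 0.893. Those p-values rest on 1 library per group and an unstated dispersion.

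The median ratio of the 161 miRNAs was 0.897, a log2 ratio of −0.16. Over the 133 named ones alone it was 0.962, a log2 ratio of −0.055. Relative to the median of the 161, the log2 ratio was −0.17 for miR-148b-3p, −0.59 for miR-152-3p, −1.71 for miR-148a-3p and −0.30 for the sum. The interval of miR-152-3p lay wholly below the median of the 161, as did those of 11.2% of them. So did those of miR-148a-3p and of the sum. The interval of miR-148b-3p took in the median of the 161, but its upper bound of 0.926 was below 0.962, the median ratio of the 95 named miRNAs that reached 50 reads in either library. Among those 95, 1 miRNA had a lower ratio than miR-152-3p and 21 had a lower one than miR-148b-3p. Among the 161, 14 had a lower ratio than miR-152-3p and 54 had a lower one than miR-148b-3p.

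**Figure D2:**
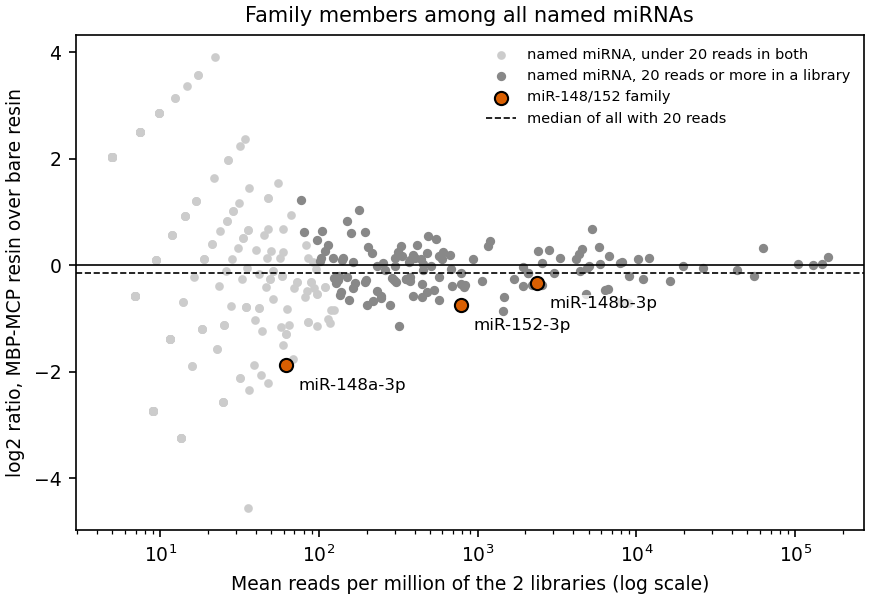
Each point is 1 named miRNA, with its mean RPM of the 2 libraries (horizontal log axis) and its log2 ratio of pulldown over control (vertical axis). The family (orange) lies below the dashed median of −0.16 at all 3 levels, and miR-148a-3p lies among miRNAs under 20 reads (light grey), whose ratios scatter most.

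The members were also compared with each other by the ratio of their ratios, which does not depend on how the libraries are scaled. The ratio of miR-152-3p was 0.749 times that of miR-148b-3p, with an interval of 0.549 to 1.02 that took in 1. The ratio of miR-148a-3p was 0.315 times that of miR-148b-3p (0.0849 to 0.996) and 0.422 times that of miR-152-3p (0.111 to 1.37). Of the 3 pairs, 1 therefore had an interval that left out 1, by a small margin, and the intervals were not widened for the number of pairs. The other two do not show that these members had equal ratios, since their intervals still allow one ratio to be 0.549 or 0.111 times the other.

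Depth set what could be seen for each member. With its 714 reads in all, miR-148b-3p would have had an interval wholly below 1 from a 1.17-fold lower level on. With 229 reads, miR-152-3p needed a 1.34-fold lower level. With 16 reads, of which 10.3 would be expected in the pulldown at equal levels, miR-148a-3p needed a 4.00-fold lower level, which is the 5 pulldown reads it had. At 1 pulldown read more among the 16 its interval would have taken in 1, and an excess would have needed 15 of the 16 reads.

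Another scaling moves all miRNAs by the same factor, and miR-148b-3p was the member whose ratio lay nearest to 1. TMM factors, which trim extreme ratios, raised the median log2 ratio of the 161 miRNAs by 0.19, to 0.038. Size factors of DESeq2 raised it by 0.28, to 0.12. Leaving the 5 most abundant miRNAs out of the totals raised it by 0.12, to −0.033. The distance of miR-148b-3p from this median is therefore little changed by the scaling. The ratio of miR-148b-3p was 0.910 with TMM factors (0.782 to 1.06), 0.963 with DESeq2 size factors (0.828 to 1.12) and 0.866 without the 5 most abundant (0.744 to 1.01), each with an interval that took in 1. That of miR-152-3p was 0.681 (0.521 to 0.891), 0.721 (0.552 to 0.943) and 0.648 (0.496 to 0.848), below 1 throughout. That of miR-148a-3p was 0.286 (0.0780 to 0.894), 0.303 (0.0825 to 0.946) and 0.272 (0.0742 to 0.851). Under TMM scaling 9.32% of the 161 miRNAs had an interval wholly below 1, and 22.4% had one above 1. For DESeq2 scaling the shares were 7.45% below and 27.3% above. miR-152-3p is among these 161, while miR-148a-3p is not. The summed family stood at 0.832 with TMM factors (0.731 to 0.948), at 0.792 without the 5 most abundant (0.696 to 0.903) and at 0.881 with DESeq2 size factors, where its interval of 0.774 to 1.004 reached 1.

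**Figure D3:**
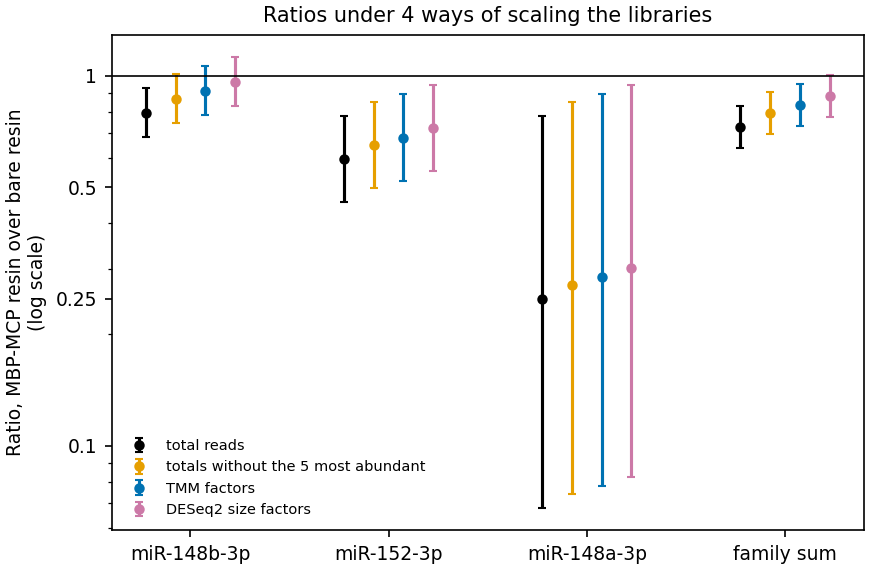
Ratio of pulldown over control (vertical log axis) of each member and of their sum under 4 scalings, with 95% counting intervals. The intervals of miR-152-3p and miR-148a-3p stay below 1 under all 4, while that of miR-148b-3p leaves out 1 with total reads only.

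A pair of other sets of miRNAs, chosen with earlier results of these data known, were set beside the family. Their counts describe these lists and do not test a class of miRNAs. The first set held 9 miRNAs reported elsewhere to act on enzymes of DNA or histone methylation. Of these, 8 had a ratio below 1, beside 60.2% of the 161 miRNAs. An interval wholly below 1 was found for 5, beside 23.6% of the 161, and one above 1 for 0, beside 11.2%. The 9 were not matched to the 161 for reads, which bear on whether an interval leaves out 1. The median log2 ratio of the 9 was −0.38, against −0.16 over the 161. The miR-29 family, which represses DNMT3A and DNMT3B, was lower in all 3 members, with miR-29a-3p at a ratio of 0.817, miR-29b-3p at 0.757 and miR-29c-3p at 0.550. miR-143-3p, reported to repress DNMT3A, had 90 pulldown and 78 control reads, which gave a ratio of 0.635 (0.463 to 0.871). miR-126-3p, an endothelial miRNA reported to act on DNMT1, had 386 and 277 reads, which gave 0.766 (0.655 to 0.898).

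Of the DNMT1-directed miR-185-5p and miR-342-3p, the ratios were 0.825 (0.531 to 1.29) and 0.765 (0.576 to 1.02). miR-101-3p and miR-26a-5p, which repress the histone methyltransferase EZH2, had ratios of 0.901 (0.788 to 1.03) and 1.08 (0.960 to 1.21), and miR-26a-5p was thus the 1 of the 9 above 1. With TMM factors 7 of the 9 were below 1 (47.8% of the 161), 3 had an interval wholly below 1 (9.32%) and 1 had one above (22.4%). With DESeq2 size factors 7 were below 1 (39.8%), 1 had an interval wholly below 1 (7.45%) and 1 had one above (27.3%). The ratio of the summed reads of the family was 0.878 times that of the summed reads of the 9 (0.766 to 1.01) and 0.922 times that of the miR-29 family (0.802 to 1.06), intervals that took in 1. A difference of the summed family from either sum was not detectable at this depth. Against single miRNAs of the set, the interval of the summed family lay wholly below that of miR-26a-5p, and that of miR-152-3p below those of miR-26a-5p and miR-101-3p.

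**Figure D4:**
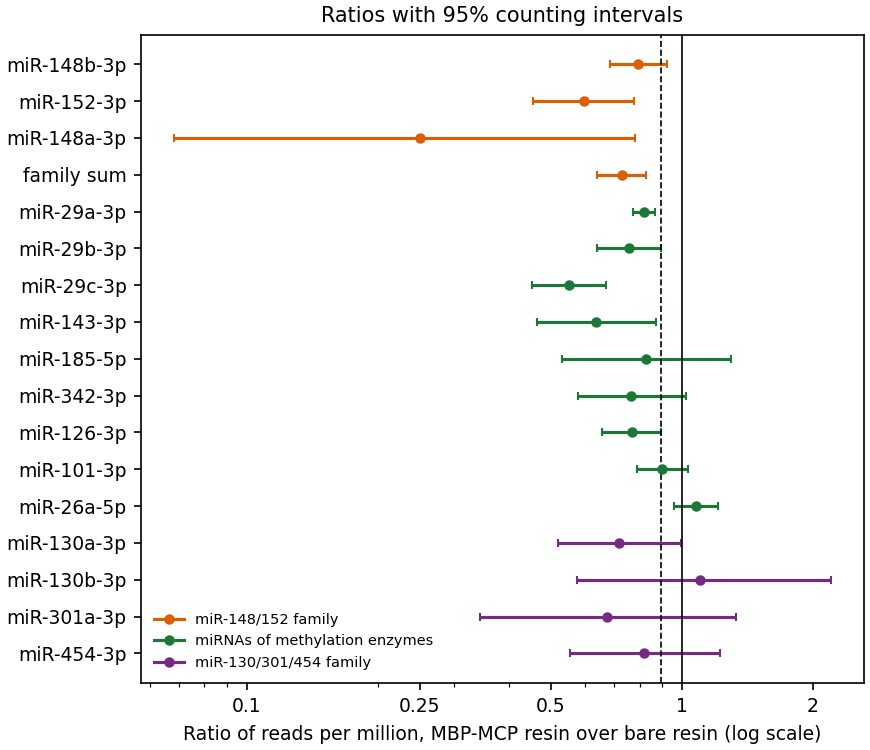
Ratio of RPM, pulldown over control (horizontal log axis), with 95% Clopper-Pearson intervals, for the family (orange), 9 miRNAs of methylation enzymes (green) and 4 members of the miR-130 and miR-301 family (purple); the solid line is 1 and the dashed line 0.897, the median of 161 miRNAs. The family's sum, at 0.727, has an interval that overlaps those of all green and purple points but miR-26a-5p.

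The second set was the miR-130 and miR-301 family, whose seed AGUGCAA is that of miR-148 moved by 1 base, so that target matches of both share a core. The sequences show the shift, with the seed in capitals (RefSeq, GRCh38.p14):
miR-130b-3p: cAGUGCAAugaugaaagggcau
miR-301a-3p: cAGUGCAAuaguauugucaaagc
miR-454-3p: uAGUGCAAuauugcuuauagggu
The RefSeq-derived table lacked miR-130a-3p, so its sequence is not shown. miR-130a-3p had 90 reads in the pulldown and 69 in the control, a ratio of 0.717 (0.518 to 0.996). miR-454-3p had 67 and 45 reads and stood at 0.819 (0.553 to 1.22). miR-301a-3p had 22 and 18 reads and stood at 0.672 (0.344 to 1.33), and miR-130b-3p had 30 and 15 and stood at 1.10 (0.574 to 2.20). In this family 1 of 4 measured members had an interval wholly below 1 with total reads, close to the 23.6% of the 161 miRNAs. With TMM factors it was 0 of 4, beside 9.32%, and with DESeq2 size factors 0 of 4, beside 7.45%. These 4 were likewise not matched to the 161 for reads. The median log2 ratio of the 4 was −0.38. The ratio of the summed miR-148 and miR-152 reads was 0.930 times that of the summed reads of this family (0.721 to 1.20).

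Named miRNAs that reached 50 reads in either library were ranked by how near their log2 ratio lay to that of a member. This measure of likeness rests on 2 libraries. Nearest to miR-152-3p were miR-27a-3p, with 1345 and 1219 reads and a ratio of 0.607, miR-9-5p, with 1215 and 1081 reads and a ratio of 0.618, and miR-143-3p. Nearest to miR-148b-3p were miR-769-5p at 0.796, miR-98-5p at 0.786 and let-7c-5p at 0.808, the last a pair of let-7 family members. The intervals of these 3 took in 1.

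Named miRNAs of like abundance gave a further reference. The 2 just above miR-148b-3p in mean RPM were miR-15b-5p, a relative of miR-16 that represses BCL2, with a ratio of 0.771 (0.667 to 0.894), and miR-182-5p, of the miR-183 cluster, with 1.21 (1.03 to 1.41). The 2 just below it were miR-126-3p and miR-28-3p, the latter with 0.897 (0.763 to 1.06). These neighbours lay on both sides of miR-148b-3p. Around miR-152-3p the 4 neighbours had ratios of 0.775 for miR-186-5p, 0.749 for miR-30d-5p, 0.786 for miR-98-5p and 0.897 for miR-361-5p, all above its 0.595, and the intervals of all 4 overlapped that of miR-152-3p.

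SNHG15 itself was searched for seed matches, on its sense strand only. The gene occupies 44983023 to 44986961 of chromosome 7 (GRCh38, minus strand). Which isoform the construct holds is not known from the labels. The 7-base match to the family's seed, TGCACTG, occurred 0 times in the 10 transcripts of GENCODE 29. It occurred in 9.32% of 1824 long non-coding transcripts within 10% of the length of SNHG15-203 (982 bases), and in 4.43% to 24.0% of those near the lengths of the 10 transcripts. TTGCACT, the match to the miR-130 and miR-301 seed, which overlaps TGCACTG by 6 bases, also occurred 0 times in the 10, against 6.09% of those near SNHG15-203 in length.

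The shorter match to bases 2 to 7, GCACTG, was present at a single genomic position, chromosome 7 from 44984342 to 44984347, in SNHG15-202 (3116 bases) and SNHG15-207 (1039 bases). It is shown, in capitals with 8 bases on each side in the sense of the transcript (GENCODE 29), as the only match to bases 2 to 7 found in the 10 transcripts:
SNHG15-202: tgagtaaaGCACTGgctacccc
GCACTG occurred in 62.8% of 771 long non-coding transcripts within 10% of the length of SNHG15-202, and in 27.3% of 1556 near that of SNHG15-207. GCACTGA, the same core with an A after it, occurred 0 times in the 10 transcripts and in 8.66% of those near SNHG15-203 in length. These counts say only which letters the transcripts hold.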

How the data were processed

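Small RNA from 1 pulldown and 1 control library was extracted with mirVana reagents, and QIAseq miRNA libraries were made, per the labels' protocols. The build was GRCh38 per the submitters' processing notes, while the aligner and miRNA annotation are not stated there. The authors deposited raw read counts of 407 miRNAs, 357 named and 50 numbered predictions, with no miRNA under 2 reads in all. The deposited table also holds RPM values, headed Tpm, within 0.0484% of those computed here from the counts. Its log2 fold changes and its p-values, raw and adjusted, were computed by the authors. There were 0 columns of other samples.

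Ratios were scaled by total miRNA reads, with exact conditional binomial (Clopper-Pearson) 95% intervals. A prior count of 0.5, in proportion to library size, was added for log2 ratios. Levels carry exact Poisson intervals. Ratios of ratios are exact conditional odds ratios (SciPy 1.17.1). With 1 library per group no test of the conditions was made. TMM and size factors came from edgeR 4.0.16 and DESeq2 1.42.0 in R 4.3.3. The intervals were tested on simulated Poisson counts, the model they assume. PCR copies and variation between libraries were not simulated. The miRNAs named were the members, 2 lists and 10 markers of the cell line. Neighbours were also named for each member with at least 20 reads in a library. They were the 3 nearest in log2 ratio among those with at least 50 reads, and the 2 next above and 2 next below in mean RPM. The members and lists were chosen with earlier results of these data known. Whether the 2 lysates were separate cultures is not stated in the labels.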

Additional observations from a re-analysis of the deposited data

How the results depend on the processing

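All 3 members and their sum kept a log2 ratio below 0 under the 5 other scalings and a prior count of 5. With DESeq2 size factors miR-148b-3p moved from −0.33 to −0.054 and the sum from −0.46 to −0.18, and with TMM factors the sum was −0.26. Without miR-148a-3p the sum was −0.43. The prior count bore on miR-148a-3p alone by over 0.1, from −1.87 to −1.21 with a prior of 5. Numbers of miRNAs at least 2-fold lower and higher, 5 and 4, became 80 and 79 with no read minimum, 0 and 0 with 50 reads and 24 and 10 at 1.5-fold; TMM factors left 2 lower, and so did DESeq2 size factors. The seed match count in SNHG15 rose from 0 to 2 with 6 bases, both at the same genomic position in 2 transcripts. Totals implied by the deposited RPM, an alternative chosen after seeing the data, changed no log2 ratio of a member by 0.01. Opposite arms of the hairpins were not analysed here, so their joint sum was not run. No paired analysis was possible because each group held 1 library. With 16 reads in all, miR-148a-3p is limited by depth.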
